A study of Homo sapiens with 24 samples.

Results

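The genes described here lie on the long arm of chromosome 20 around TFAP2C, which encodes the transcription factor AP-2gamma, from 50000000 on GRCh37 to just short of the telomere. All deposited entries whose locus lies wholly in that interval were taken and their values summed to gene symbols, leaving out TFAP2C itself, AURKA, BMP7, PMEPA1, RPS21, PSMA7 and ATP5F1E. The interval held 391 entries, of which 9 matched no symbol, and the genes kept were 166 of the 27431 symbols in each genome-wide table, from 363 entries. Genes of the interval below means these 166, so the genes left out are neither counted nor ranked. The study measured RNA of HER2-positive breast carcinoma lines after TFAP2C knockdown, in 24 samples that form 8 groups of 3. The 6 groups used here are SKBR3_siAP2C and SKBR3_siNT, HCC1954_siAP2C and HCC1954_siNT, and HCC1954_shAP2C and HCC1954_shNT. The siRNA groups were transfected with TFAP2C siRNA ID:107041 or with Negative control siRNA#2, by lipofection, for 72 to 96 h. The shRNA groups are stable HCC1954 clones made with lentivirus carrying a TFAP2C shRNA or a negative control shRNA, and the labels do not say how many clones a group holds. All cultures were at passage 5 to 10 and were not authenticated by the submitters. The HCC1569 table of 68 selected genes held 0 of the 166, so that line is not described.

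Distal 20q is a stretch of chromosome that is often gained in breast cancer, and ZNF217, which encodes a zinc finger repressor of transcription, and BCAS1, whose name records its amplification in breast carcinoma, are the genes best known from it. Both lie in the interval in these files. Other genes of the interval encode parts of everyday cell machinery: RNA processing and export (CSTF1, RAE1), membrane traffic (RAB22A, VAPB, STX16), heterotrimeric G protein signalling (GNAS), the proteasome (ADRM1) and lysosomal proteolysis (CTSZ).

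Levels are the authors' FPKM, fragments scaled to transcript length and library size, with 1 pooled value per entry and group, so no value has a replicate spread of its own and depth is unknown. A gene is said to rise or fall only where its tested entry with the highest FPKM had q under 0.05 in the authors' deposited table, and folds are those of summed FPKM, knockdown over control or its inverse. The labels do not state whether a group's 3 samples were separate cultures, and the authors' p-values may therefore reflect technical spread alone. The smallest p they deposited is 5e-05. Its q was 4.41e-04 for SKBR3 siRNA, 4.25e-03 for HCC1954 siRNA and 1.21e-04 for shRNA, so genes at these values cannot be ranked by q. In bulk RNA, fewer cells of a type and less RNA per cell cannot be told apart. Of the 166 genes, 91 reached 1 FPKM in at least 1 group, 56 reached it in all 6 groups, 37 were listed at 0 in every group, and 70 were tested in at least 1 comparison. The 21 miRNA hairpins among them are short features whose listed FPKM is erratic: MIR1914 was listed at 0 in SKBR3_siAP2C and at 270.2 FPKM in SKBR3_siNT. TFAP2C had 53.9 FPKM in SKBR3_siAP2C against 157 in SKBR3_siNT, 22.0 in HCC1954_siAP2C against 92.4 in HCC1954_siNT, and 3.46 in HCC1954_shAP2C against 81.0 in HCC1954_shNT. Epithelial EPCAM was at 105 to 160.5 FPKM, KRT8 at 807 to 2137 FPKM and KRT18 at 306 to 1310 FPKM in the 6 groups. Epithelial CDH1 was at 0.0894 FPKM in SKBR3_siNT and 0.0970 in SKBR3_siAP2C, against 20.7 to 269 FPKM in the HCC1954 groups. Fibroblast COL1A2 and PDGFRB and leukocyte PTPRC and CD3E were all under 0.1 FPKM. Of the other fixed marker genes of fibroblasts and endothelium, COL1A1 reached at most 1.95 FPKM, and PECAM1 was at 11.6 to 27.0 FPKM in the HCC1954 groups other than HCC1954_shAP2C, where it was at 0.0180.

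Promoter windows are shown for ZNF217, which changed in opposite directions in 2 comparisons, for FAM210B and CTSZ, which had the largest falls in SKBR3, and for ATP9A, the only gene of the interval called with siRNA in HCC1954. The sequences are RefSeq's (GRCh38.p14, minus strand for ZNF217, CTSZ and ATP9A, plus strand for FAM210B), 250 bases before to 50 after the gene start, written 5′ to 3′. Capitals mark GCCNNNGGC, a form of the sequence that AP-2 proteins bind, which is its own reverse complement, so that 1 search covers both strands. ZNF217 is at chr20:53593790-53594089, FAM210B at chr20:56358724-56359023, CTSZ at chr20:59007205-59007504 and ATP9A at chr20:51768341-51768640.
ZNF217: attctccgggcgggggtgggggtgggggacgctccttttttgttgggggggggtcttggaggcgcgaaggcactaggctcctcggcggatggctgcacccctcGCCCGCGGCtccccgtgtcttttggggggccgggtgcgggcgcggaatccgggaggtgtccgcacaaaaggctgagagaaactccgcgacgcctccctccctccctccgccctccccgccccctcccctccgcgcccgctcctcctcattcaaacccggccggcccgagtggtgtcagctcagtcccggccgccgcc
FAM210B: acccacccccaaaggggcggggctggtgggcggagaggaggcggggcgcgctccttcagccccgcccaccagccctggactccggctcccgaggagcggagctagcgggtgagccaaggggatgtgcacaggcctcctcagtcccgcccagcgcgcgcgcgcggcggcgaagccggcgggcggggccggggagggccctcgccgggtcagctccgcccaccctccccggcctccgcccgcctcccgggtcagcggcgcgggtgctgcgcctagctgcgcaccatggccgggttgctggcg
CTSZ: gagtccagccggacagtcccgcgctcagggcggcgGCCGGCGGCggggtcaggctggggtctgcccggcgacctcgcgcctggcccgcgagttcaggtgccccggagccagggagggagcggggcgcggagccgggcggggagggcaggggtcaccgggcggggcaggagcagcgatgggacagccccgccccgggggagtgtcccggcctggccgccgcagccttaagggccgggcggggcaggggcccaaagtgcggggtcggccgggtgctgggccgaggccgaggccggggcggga
ATP9A: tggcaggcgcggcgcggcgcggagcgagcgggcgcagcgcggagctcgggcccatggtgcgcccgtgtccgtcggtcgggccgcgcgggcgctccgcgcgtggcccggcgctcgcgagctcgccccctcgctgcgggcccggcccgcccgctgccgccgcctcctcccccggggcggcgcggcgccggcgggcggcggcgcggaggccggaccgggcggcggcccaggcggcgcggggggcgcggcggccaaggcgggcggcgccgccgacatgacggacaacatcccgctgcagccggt
These letters occur in 1 place in the ZNF217 and CTSZ windows and in no place in those of FAM210B and ATP9A. They occur in 46 of the 101 windows found for genes of the interval (45.5%) and in 23.2% of all 35116 windows of the same table. With shRNA they occur in 23 of 38 windows of genes that fell and in 3 of 5 of genes that rose. With siRNA in SKBR3 these counts were 5 of 8 and 3 of 8. The fixed letters are all G or C, and the base composition of the windows was not compared. A match is a description of letters and no binding was measured.

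Control cells of the 2 lines were set side by side first, since they show how these genes are used before knockdown. The values come from separately normalized tables and carry no test. Among genes with at least 1 FPKM in both SKBR3_siNT and HCC1954_siNT, BCAS1 stood furthest apart, at 149 FPKM in SKBR3_siNT against 1.35 FPKM in HCC1954_siNT and 2.48 FPKM in HCC1954_shNT. ZNF217 was at 137 FPKM in SKBR3_siNT against 50.8 and 65.9 FPKM in HCC1954_siNT and HCC1954_shNT, and ATP9A, a lipid flippase gene, at 53.8 FPKM against 20.2 and 18.0 FPKM. PTK6, a non-receptor tyrosine kinase gene, had 8.80 FPKM in SKBR3_siNT against 2.49 and 3.61 FPKM, and SAMD10 had 16.4 FPKM against 4.71 and 5.04 FPKM. These 5 genes were higher in SKBR3 than in either HCC1954 control. NPEPL1, an aminopeptidase-like gene, was lower, at 2.94 FPKM in SKBR3_siNT against 67.0 and 36.8 FPKM in HCC1954_siNT and HCC1954_shNT. STX16, which encodes a syntaxin of the Golgi and is its neighbour, was at 73.2 FPKM against 160.4 and 151 FPKM. GNAS, the gene of the stimulatory G protein alpha subunit, had the highest level of the genes kept in each control, 688 FPKM in SKBR3_siNT against 1356 and 959.9 FPKM. HELZ2, a helicase gene, was at 2.89 FPKM in SKBR3_siNT against 11.2 and 9.34 FPKM, and TCEA2, a transcription elongation factor gene, at 3.12 FPKM against 13.3 and 6.62 FPKM.

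Which line was higher over the whole interval depended on the HCC1954 control chosen. The median log2 ratio of SKBR3_siNT over HCC1954_siNT was 0.37 over 71 genes with at least 1 FPKM in 1 of the groups, against -0.10 over all symbols and 0.67 on chromosome 20 before 50 Mb. Against HCC1954_shNT it was -0.14 over 73 genes, close to the -0.16 over all symbols, and 0.32 on chromosome 20 before 50 Mb. The HCC1954 controls differed from each other by a median log2 ratio of 0.51 (HCC1954_shNT over HCC1954_siNT, 68 genes), with a median absolute difference of 0.68 in the interval and 0.64 over all symbols. The signed median ratio of HCC1954_shNT over HCC1954_siNT was 0.48 on chromosome 20 before 50 Mb and 0.06 over all symbols. FAM210B, at 176 FPKM in HCC1954_shNT against 48.3 FPKM in HCC1954_siNT, and VAPB, at 119.9 against 38.7 FPKM, differed by more than that median. Their log2 ratios of 1.87 and 1.63 lay above the upper quartile of 0.92. GNAS differed in the other direction, with a log2 ratio of -0.50. The 7 genes between 50 and 54 Mb had a median of 1.41 against HCC1954_siNT, and 8 had a median of 1.59 against HCC1954_shNT, so there SKBR3 was higher with either control. Between 57 and 60 Mb the medians were -0.46 (11 genes) and -0.87 (11 genes), against -0.10 and -0.16 over all symbols. The -0.46 counts SLMO2-ATP5E, at 1.94e-08 FPKM in SKBR3_siNT, and STX16, NPEPL1 and their read-through STX16-NPEPL1, which share a locus. In that stretch FAM217B, PPP1R3D and SYCP2 were higher in SKBR3_siNT than in HCC1954_siNT.

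**Figure D1:**
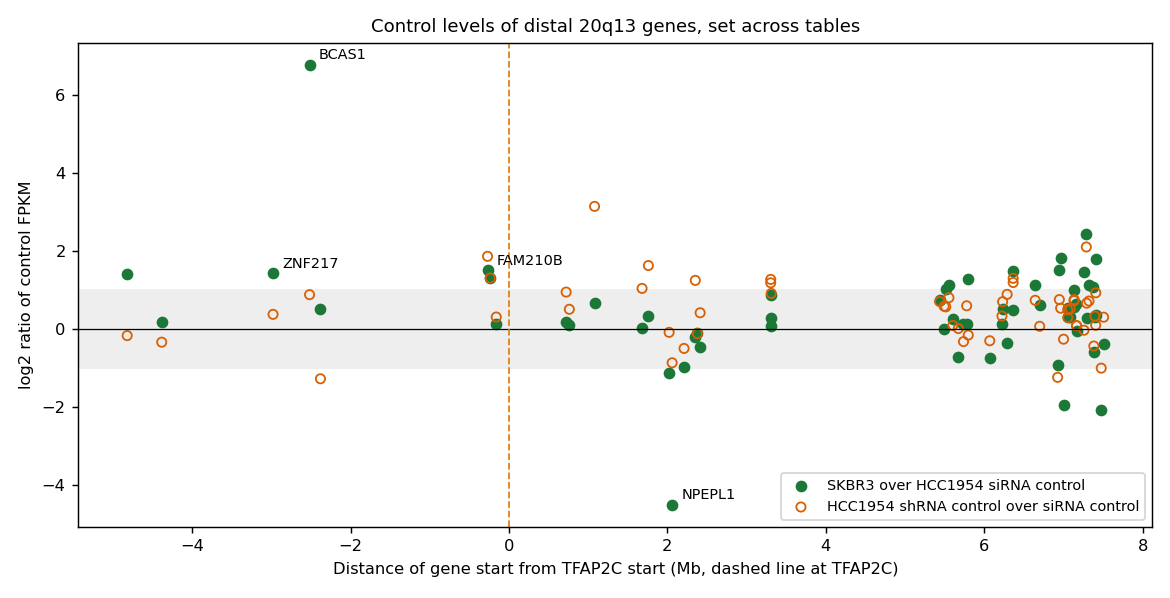
Log2 ratio of control FPKM (vertical axis) against distance from the TFAP2C start in Mb (horizontal axis) for genes with at least 1 FPKM in SKBR3_siNT and HCC1954_siNT. Filled points are SKBR3_siNT over HCC1954_siNT, open points HCC1954_shNT over HCC1954_siNT, and the grey band spans log2 ratios from -1 to 1. BCAS1 at 6.79 and NPEPL1 at -4.51 lie furthest from 0.

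With siRNA in SKBR3, ZNF217 rose and BCAS1 fell, and FAM210B and CTSZ had the largest falls. Of 60 tested genes, 11 fell and 9 rose, or 18.3% and 15.0%, against 20.7% and 12.5% of all tested symbols and 26.6% and 14.9% on chromosome 20 before 50 Mb, so the shares were close to those of all genes. The median log2 ratio was -0.01 over 74 genes, against -0.08 over all symbols and -0.05 over genes of chromosome 20 before 50 Mb.

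ZNF217 had 207 FPKM in SKBR3_siAP2C against 137 FPKM in SKBR3_siNT, a 1.51-fold rise (q = 4.41e-04 in the authors' deposited table). PFDN4, a prefoldin chaperone subunit gene that lies beyond BCAS1, had 35.9 against 24.2 FPKM, a 1.48-fold rise with q = 4.41e-04 in the authors' deposited table. BCAS1, between them, was at 117 FPKM in SKBR3_siAP2C and 149 FPKM in SKBR3_siNT, 1.28-fold lower (q = 4.31e-03 in the authors' deposited table). Close neighbours therefore changed in opposite directions.

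FAM210B, which encodes a mitochondrial membrane protein and lies before TFAP2C, was at 62.1 FPKM in SKBR3_siAP2C and 138 FPKM in SKBR3_siNT, 2.22-fold lower with q = 4.41e-04 in the authors' deposited table. CTSZ, the gene of the lysosomal protease cathepsin Z, was at 163 and 305 FPKM in the same groups, 1.87-fold lower with the same q in the authors' deposited table. Smaller falls were called for EEF1A2, a translation elongation factor gene (51.2 FPKM in SKBR3_siAP2C, 70.8 in SKBR3_siNT), and for PPP1R3D, a glycogen-targeting phosphatase subunit gene (19.5 and 26.6 FPKM). The others that fell were SAMD10 (12.5 and 16.4 FPKM), SLC2A4RG (28.4 and 36.7 FPKM), PPDPF (240.3 and 307 FPKM), CABLES2 (9.26 and 11.5 FPKM), NELFCD, a subunit gene of the negative elongation factor (43.2 and 52.2 FPKM), and LSM14B (22.7 and 27.2 FPKM).

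HELZ2 had the largest rise in SKBR3, at 6.01 FPKM in SKBR3_siAP2C against 2.89 FPKM in SKBR3_siNT (2.08-fold, q = 4.41e-04 in the authors' deposited table). ABHD16B rose to 10.8 FPKM, against 6.60 FPKM in SKBR3_siNT. LAMA5, a laminin chain gene of basement membranes, rose to 44.8 FPKM in SKBR3_siAP2C, against 33.7 FPKM in SKBR3_siNT. ARFGAP1, a regulator gene of Golgi traffic, was at 59.0 and 44.4 FPKM, OGFR at 69.7 and 53.2 FPKM, OSBPL2, an oxysterol-binding protein gene, at 32.3 and 24.9 FPKM, and TPD52L2 at 169.6 and 146 FPKM. All 7 of these lie beyond 60 Mb, where 7 of 37 tested genes rose and 6 fell.

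With siRNA in HCC1954, ATP9A alone among the tested genes of the interval was called. Of 60 tested, 1 rose, 1.67% against 2.27% of all tested symbols, and 0 fell, against 0.948%. On chromosome 20 before 50 Mb the shares were 1.63% in each direction. At an unadjusted p under 0.05 in the authors' deposited table, made with Cuffdiff, 2 were lower and 8 higher, 3.33% and 13.3%, against 5.31% and 7.75% of all tested symbols. No other tool could be run on pooled values. The gene that rose was ATP9A, at 31.0 FPKM in HCC1954_siAP2C against 20.2 FPKM in HCC1954_siNT (1.54-fold, q = 4.25e-03 in the authors' deposited table). It was at 56.8 FPKM in SKBR3_siAP2C against 53.8 FPKM in SKBR3_siNT, not called.

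Several genes near TFAP2C, given here with values, were tested with siRNA in HCC1954. FAM210B was at 47.1 FPKM in HCC1954_siAP2C and 48.3 in HCC1954_siNT, CSTF1, a subunit gene of the cleavage stimulation factor, at 29.1 and 30.4 FPKM, and RTF2, a replication fork factor gene, at 113 and 125 FPKM. RAE1, an mRNA export gene, was at 61.2 and 59.2 FPKM, and VAPB, which encodes a tether of the endoplasmic reticulum, at 39.8 and 38.7 FPKM. RBM38, an RNA-binding protein gene, was at 71.5 and 52.9 FPKM. None of these was called. The median log2 ratio over 68 genes of the interval was 0.05, against 0.00 over all symbols.

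That table's columns give the siRNA but no line, which was read from the deposited table's title. The differences between the siRNA ratios of SKBR3 and HCC1954 passed the test for 0 of 55 genes, with 2 at an unadjusted p under 0.05. Of 9272 symbols 0.475% passed, 0.173% with a lower and 0.302% with a higher ratio in SKBR3. This z test divides the difference of log2 ratios by a standard error from the deposited statistics, with Benjamini-Hochberg adjustment. The log2 ratios in it are those of the deciding entry of each comparison, not of summed FPKM. With standard errors from the deposited p-values instead, 7 of 55 passed, against 12.2% of all symbols (7.31% lower, 4.86% higher). They were PPDPF, CTSZ, FAM210B, ATP9A and EEF1A2, whose log2 ratio was lower in SKBR3, and ZNF217 and OSBPL2, whose ratio was higher. For FAM210B the log2 difference was -1.12 with a standard error of 0.34, which did not pass after adjustment in the first form.

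**Figure D2:**
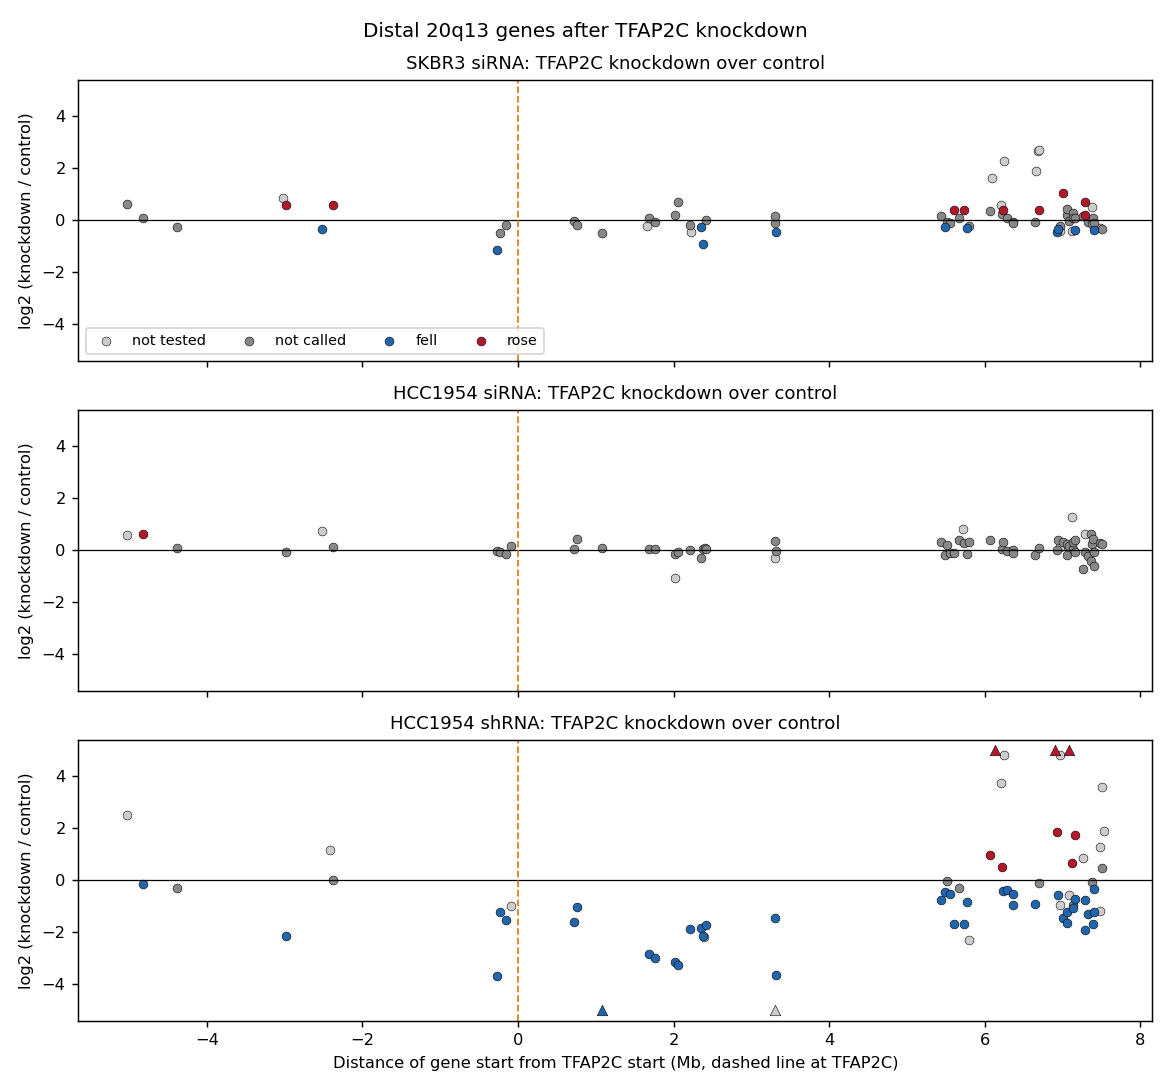
Log2 ratio of knockdown over control FPKM (vertical axis) against distance from the TFAP2C start in Mb (horizontal axis), 1 panel per comparison, for genes with at least 1 FPKM in 1 of the groups and above 0 in both. Blue points fell, red points rose, dark grey points were tested and not called, light grey points were not tested, and triangles lie beyond the axis. With shRNA every tested gene from 54 to 60 Mb is blue, while with siRNA in HCC1954 the same stretch has no coloured point.

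With stable shRNA in HCC1954, all tested neighbours of TFAP2C fell together. Of 58 tested genes of the interval 41 fell and 9 rose, or 70.7% and 15.5%, against 39.1% and 36.4% of all tested symbols, and against 54.5% and 25.5% on chromosome 20 before 50 Mb. The median log2 ratio was -0.84 over 73 genes, against 0.02 over all symbols and -0.35 on chromosome 20 before 50 Mb. These shares are descriptions and were not tested against each other.

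The share of genes that fell varied along the interval. Between 54 and 57 Mb 8 of 8 tested genes fell, with a median log2 ratio of -1.61 over 9 genes above the FPKM minimum, and between 57 and 60 Mb 8 of 8 fell, with a median of -2.16 over 10 genes. Beyond 60 Mb 23 of 38 fell and 9 rose, with a median of -0.48, and between 50 and 54 Mb 2 of 4 fell, with a median of -0.07. In blocks of 1 Mb with at least 3 genes, the lowest median of chromosome 20 outside the interval was -1.23 (9 genes between 1 and 2 Mb). The blocks from 55 to 59 Mb had medians of -1.26, -2.99, -2.13 and -3.66.

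**Figure D3:**
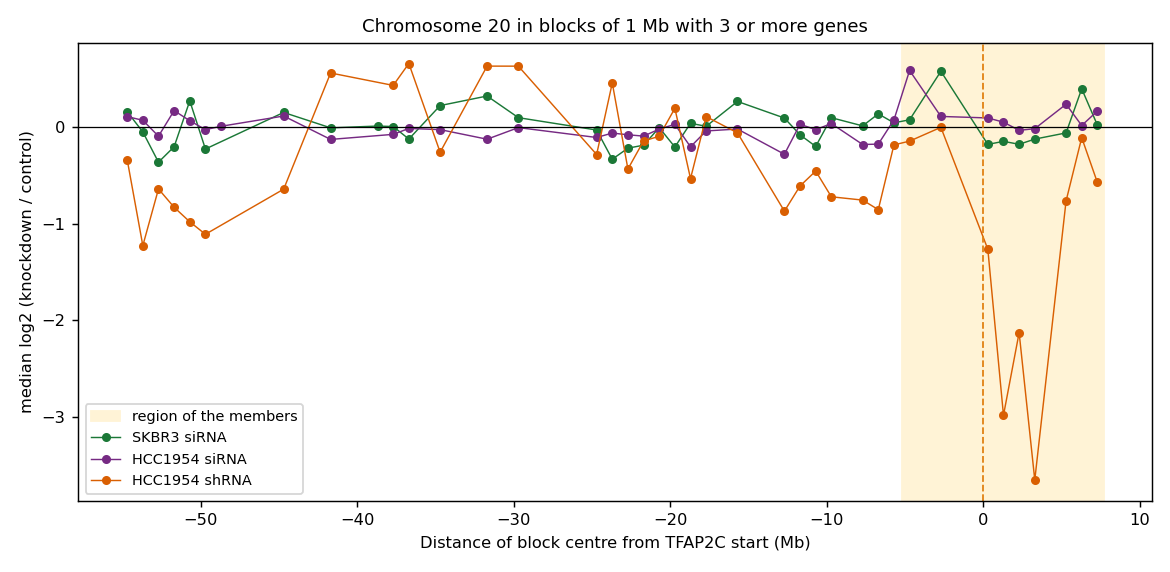
Median log2 ratio of knockdown over control (vertical axis) in blocks of 1 Mb of chromosome 20 with at least 3 genes, against distance of the block centre from the TFAP2C start in Mb (horizontal axis). The shaded band is the interval of the genes described here and the 7 left-out genes are not counted. The shRNA line drops to -3.66 in the block from 58 to 59 Mb, while both siRNA lines stay between -0.18 and 0.59 within the band.

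Before TFAP2C, FAM210B was at 13.6 FPKM in HCC1954_shAP2C and 176 FPKM in HCC1954_shNT, a 13-fold fall. CSTF1 was at 31.9 and 75.3 FPKM in the same groups, a 2.36-fold fall, and RTF2 at 54 and 155 FPKM, a 2.86-fold fall. The q for CSTF1 was 0.0226 in the authors' deposited table, and FAM210B and RTF2 each had q = 1.21e-04 in it. These 3 genes before TFAP2C fell by unequal amounts.

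Beyond TFAP2C, RAE1 was at 37.3 FPKM in HCC1954_shAP2C and 114 FPKM in HCC1954_shNT, a 3.06-fold fall. RBM38 was at 37.3 and 75.1 FPKM, a 2.01-fold fall. RAB22A, the gene of a small GTPase of endosomes, was at 7.03 and 49.8 FPKM (7.08-fold), and VAPB at 15.1 and 119.9 FPKM (7.92-fold). Each of these 4 had q = 1.21e-04 in the authors' deposited table. NKILA, a long noncoding RNA gene that was also called (q = 0.0254 in the authors' deposited table), was at 0.0179 FPKM in HCC1954_shAP2C and 25.9 FPKM in HCC1954_shNT. It overlaps PMEPA1, and without a stated use of strand in counting its reads and those of PMEPA1 cannot be told apart.

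Further on, STX16 was at 17.3 FPKM in HCC1954_shAP2C and 151 FPKM in HCC1954_shNT (8.75-fold), and NPEPL1 at 3.81 and 36.8 FPKM (9.64-fold). Of the 166 genes 79 share a deposited locus with another symbol, ZNF217, GNAS, LAMA5 and DNAJC5 among them, and the annotated spans of NELFCD and CTSZ overlap on opposite strands. Use of strand in counting is not stated, so reads of such genes may be shared. STX16 and NPEPL1 share a locus and a read-through transcript, and the split of reads between them is uncertain. GNAS was at 260.0 and 959.9 FPKM, a 3.69-fold fall, and remained the most abundant of the genes kept. NELFCD was at 40.0 and 143 FPKM (3.57-fold), CTSZ at 69.2 and 303 FPKM (4.37-fold), and PRELID3B, a mitochondrial lipid transfer gene, at 78.2 and 256 FPKM (3.27-fold). PPP1R3D had 3.25 FPKM in HCC1954_shAP2C against 41.0 FPKM in HCC1954_shNT (12.6-fold), while FAM217B, which overlaps it, had 13.7 against 37.2 FPKM (2.72-fold). Each of these genes had q = 1.21e-04 in the authors' deposited table. SYCP2, the gene of a meiotic chromosome axis protein, was at 0.0425 FPKM in HCC1954_shAP2C and 4.48 FPKM in HCC1954_shNT and was not tested.

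**Figure D4:**
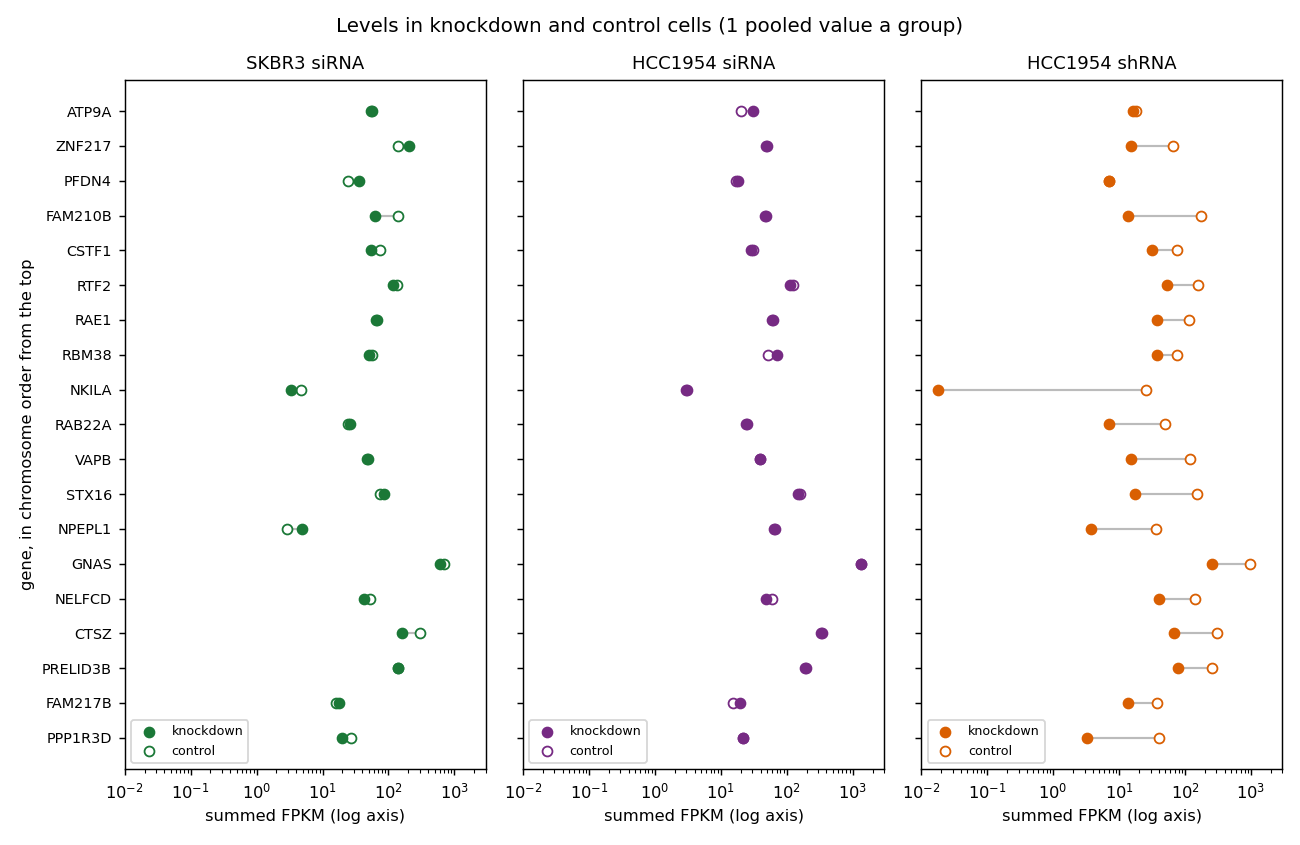
Summed FPKM (horizontal log axis) in knockdown groups (filled) and control groups (open), 1 pooled value each, for ATP9A, ZNF217, PFDN4 and the 16 genes between 54 and 60 Mb that fell with shRNA, in chromosome order from the top. In the shRNA panel each of these 16 has its filled point left of the open one, from 2.01-fold for RBM38 upward.

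On the side of the centromere ZNF217 fell 4.41-fold with shRNA, to 14.9 FPKM in HCC1954_shAP2C against 65.9 FPKM in HCC1954_shNT, with q = 1.21e-04 in the authors' deposited table. PFDN4, beyond BCAS1 and CYP24A1, was at 6.95 FPKM in both shRNA groups. ATP9A fell 1.10-fold, to 16.3 FPKM in HCC1954_shAP2C against 18.0 FPKM in HCC1954_shNT (q = 1.39e-03 in the authors' deposited table). ZFP64, a zinc finger gene, was at 10.4 and 12.9 FPKM, not called. BCAS1 was listed at 0 in HCC1954_shAP2C and at 2.48 FPKM in HCC1954_shNT and was not tested.

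Towards the telomere the falls were smaller and mixed with rises. LAMA5 was at 7.64 FPKM in HCC1954_shAP2C and 24.7 FPKM in HCC1954_shNT (3.23-fold lower), OSBPL2 at 7.02 and 22.4 FPKM (3.19-fold) and ZNF512B, a zinc finger gene, at 5.08 and 16.3 FPKM (3.20-fold). HELZ2 was at 3.46 and 9.34 FPKM, GMEB2 at 6.81 and 15.9 FPKM and DNAJC5, a synaptic vesicle chaperone gene, at 28.3 and 69.6 FPKM. Falls under 2-fold were called for YTHDF1, a reader of methylated adenosine in mRNA (36.8 and 69.0 FPKM), GID8 (29.6 and 57.7 FPKM), TAF4, a subunit gene of the general factor TFIID (7.91 and 13.4 FPKM), and PRPF6, a spliceosome gene (38.7 and 48.7 FPKM). ADRM1, the gene of a proteasomal ubiquitin receptor, was at 68.0 and 84.1 FPKM and was not called.

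The 9 genes that rose with shRNA all lie beyond 60 Mb, and 8 of them are described here. EEF1A2 was at 208 FPKM in HCC1954_shAP2C and 57.4 FPKM in HCC1954_shNT, a 3.63-fold rise with q = 1.21e-04 in the authors' deposited table. STMN3, a microtubule regulator gene, was at 66.3 and 1.84 FPKM, a 36.1-fold rise with q = 1.21e-04 in the authors' deposited table. NTSR1, the gene of a neurotensin receptor, was at 60.2 and 0.0713 FPKM (q = 0.0395 in the authors' deposited table). SLC17A9, a vesicular nucleotide transporter gene, was at 6.13 FPKM in HCC1954_shAP2C and listed at 0 in HCC1954_shNT. LIME1 rose to 14.4 FPKM in HCC1954_shAP2C, against 4.27 FPKM in HCC1954_shNT, SLCO4A1 to 13.9 against 7.14 FPKM, MRGBP to 24.6 against 17.4 FPKM and TNFRSF6B, a decoy receptor gene, to 6.91 against 4.41 FPKM. LIME1 and TNFRSF6B share a locus with RTEL1, ZGPAT and ARFRP1, and reads between these genes may be split.

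By role, with shRNA 7 of 7 tested genes of RNA handling and 8 of 9 of membrane traffic and lipid transfer fell and none of either group rose. The RNA handling list includes RTF2, named above as a replication fork factor gene, which is among those that fell. The share that fell was 39.1% over all tested symbols and 70.7% over the tested genes of the interval, and no role group was tested against either. Of 12 tested genes of transcription and chromatin 9 fell and 0 rose, and of 5 tested signalling genes 1 fell (GNAS) and 3 rose. With siRNA in SKBR3 these 4 groups had 1, 0, 2 and 0 falls and 0, 2, 2 and 0 rises, among 7, 9, 14 and 4 tested. With siRNA in HCC1954 the only call among them was ATP9A, a rise, in the traffic group. Of 5 tested genes of protein folding and turnover 3 fell with shRNA (CTSZ among them) and 0 rose, and with siRNA in SKBR3 1 fell (CTSZ) and 1 rose (PFDN4).

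Other marker genes of the lines also differed between the shRNA groups. ERBB2 was at 20.8 FPKM in HCC1954_shAP2C and 1525 FPKM in HCC1954_shNT, and GRB7 at 7.08 and 450 FPKM. In the same groups GATA3 was at 0.731 and 9.99 FPKM, KRT5 at 0.342 and 281 FPKM, CDH1 at 20.7 and 149 FPKM, and KRT19 at 634 and 19.9 FPKM. The part of these wider differences in the levels of the 20q13 genes was not tested. DNA copy number and differences between clones were not tested either. The shRNA ratio must also be read beside its control, since HCC1954_shNT stood above HCC1954_siNT by a median log2 ratio of 1.04 over 9 genes between 54 and 57 Mb. That gap was smaller elsewhere, at 0.17 over 12 genes between 57 and 60 Mb. It was 0.10 over 6 genes between 50 and 54 Mb and 0.52 over 41 genes beyond 60 Mb. Among genes with at least 1 FPKM in HCC1954_siNT, HCC1954_shAP2C was below both HCC1954 siRNA groups for 8 of 9 between 54 and 57 Mb and for 11 of 11 between 57 and 60 Mb, with median log2 ratios of -1.36 and -2.74 to HCC1954_siNT. That held for 4 of 4 between 50 and 54 Mb, with a median of -0.96, and beyond 60 Mb for 21 of 38 genes, with a median of -0.07. Over all 11974 symbols it held for 49.5%, with a median of -0.07, and on chromosome 20 before 50 Mb for 45.7%. Both gene sets between 57 and 60 Mb count SLMO2-ATP5E, listed near 0 FPKM in HCC1954_shAP2C and HCC1954_shNT. They also count STX16, NPEPL1 and STX16-NPEPL1, which share a locus. All these levels were set across separately normalized tables and were not tested.

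The shRNA and siRNA ratios of HCC1954, which have separate controls, were then compared gene by gene with the z test, again on the deciding entries, so that for genes with several entries the differences are not those of the summed FPKM above. Of 52 genes of the interval that could be compared 15 differed at adjusted p under 0.05, 28.8% against 13.4% of 8983 symbols. Of these 14 were lower and 1 higher with shRNA, against 8.93% and 4.46% of all symbols. When standard errors came from deposited p-values 36 differed, 33 lower and 3 higher, against 49.6% of all symbols (28.2% lower, 21.4% higher). FAM210B differed by -3.66 on the log2 scale with a standard error of 0.34. RAB22A differed by -2.88 with a standard error of 0.33 and VAPB by -3.29 with one of 0.46. ZNF217 differed by -2.07 with a standard error of 0.33, and EEF1A2 by 1.86 with a standard error of 0.32. For STX16 the difference of -2.54 had a standard error of 1.01 and did not pass. For 9 of the 52 genes, NPEPL1 and RBM38 among them, the deciding entries of the 2 comparisons were different transcripts, so their differences are not given. With the 43 genes that had the same entry in both, 16 differed, 15 lower and 1 higher, against 16.1% of 7501 symbols.

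**Figure D5:**
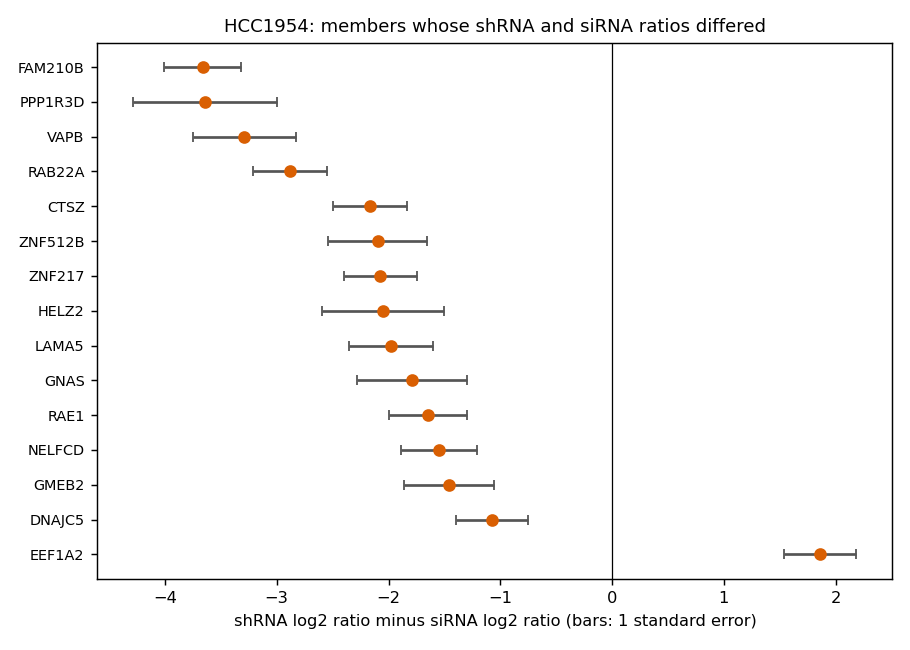
Difference between the shRNA and the siRNA log2 ratio in HCC1954 of the deciding entry (horizontal axis, shRNA minus siRNA, bars 1 standard error) for the 15 genes with adjusted p under 0.05 by the z test. FAM210B is lowest at -3.66, and EEF1A2, at 1.86, is the 1 gene above 0.

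Calls shared between SKBR3 siRNA and HCC1954 shRNA, which share no samples, went both ways. Of the 11 genes that fell in SKBR3, 9 also fell with shRNA (81.8%), which is 22.0% of the 41 that fell with shRNA. The genes were FAM210B, CTSZ, NELFCD, PPP1R3D, LSM14B, CABLES2, PPDPF, SLC2A4RG and SAMD10. BCAS1, among the 11, was not tested with shRNA, so 9 of the 10 tested in both fell in both. Of the 9 that rose in SKBR3, 7 fell with shRNA (77.8%): ZNF217, LAMA5, OSBPL2, OGFR, HELZ2, TPD52L2 and ABHD16B. EEF1A2 fell in SKBR3 and rose with shRNA, and 0 genes rose in both. Over all symbols tested in both, 40.1% of those that fell in SKBR3 and 58.5% of those that rose there fell with shRNA, while 70.7% of all tested genes of the interval fell with shRNA. No gene of the interval was called in the same direction in all 3 comparisons. Across genes, the Spearman correlation of log2 ratios was 0.14 between SKBR3 siRNA and HCC1954 shRNA (65 genes), 0.16 between the siRNA comparisons (62 genes) and 0.27 between HCC1954 siRNA and shRNA (62 genes), where neighbouring genes and shared tables make the points dependent. Over all symbols these correlations were -0.11, 0.18 and 0.08.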

How the data were processed

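RNA was sequenced from cell lines with TruSeq libraries, per the labels' protocols. The submitters' processing notes list Bowtie 0.12.2, Cuffdiff, hg19 and GRCh37. Each entry has 1 FPKM value per group, computed by the authors from 3 samples. The test statistic, a score, was used as deposited. Every p-value and q-value quoted per gene was likewise deposited by the authors. A standard error taken from a deposited p-value is limited by the smallest one, 5e-05. Depth and replicate spread are unknown, since no column holds a single sample.

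Entries (66321 a table) were matched by RefSeq accession to symbols (65468 matched) with NCBI's GRCh38.p14 names, and FPKM was summed per symbol. Loci of all 151 genes of the interval found in GENCODE's GRCh37 annotation overlapped it. No pseudocount was used, medians took symbols with at least 1 FPKM in 1 group, and a gene's place is the middle of its loci. Genes were named by a fixed rule: ZNF217, BCAS1, a list of known genes, up to 10 largest called changes per direction, and shared or differing calls. The members, lists, role groups and segments were chosen with earlier results of these data known. The z test was run on simulated data drawn with the same standard errors that it assumes, which checks the computation only. Whether the deposited statistic gives a correct standard error was not tested. Python 3.11.15, pandas 2.3.3 and scipy 1.17.1 were used. PCMTD2, whose locus crosses the end of the interval, was left out. The z test takes as standard error the log2 ratio divided by the deposited statistic, with Benjamini-Hochberg adjustment over all symbols. Listed alternatives are in the closing section. The values of 1 gene that rose with shRNA are not reported here.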

Additional observations from a re-analysis of the deposited data

Results flagged for a closer look

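In HCC1954 the change with shRNA differed from that with siRNA for 15 genes, by the z test of the difference of log2 ratios of the deciding entry, which was the same transcript in both comparisons for each of them. Those lower with shRNA were FAM210B (-3.66), PPP1R3D (-3.64), VAPB (-3.29), RAB22A (-2.88), CTSZ (-2.17), ZNF512B (-2.10), ZNF217 (-2.07), HELZ2 (-2.05), LAMA5 (-1.98), GNAS (-1.79), RAE1 (-1.65), NELFCD (-1.55), GMEB2 (-1.46) and DNAJC5 (-1.07). EEF1A2 was higher with shRNA, by 1.86. Of these 15, 8 lie between 54 and 60 Mb.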

How the results depend on the processing

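The counts of genes that fell or rose stayed within 1.5 times their value with q under 0.01, with any tested entry deciding the call, and with a minimum of 1 FPKM. The median control ratio of SKBR3 over HCC1954 (0.37) reversed to -0.14 with the HCC1954 shRNA control, where all symbols had a median of -0.16. It was 0.59 with the entry of highest FPKM alone, and the cause was not tested. The shRNA median of -0.84 was -0.72 with no filter and -0.70 with a pseudocount of 1 FPKM. With at least 5 FPKM the segment medians from 50 to 54 Mb were 0.32 (SKBR3 siRNA), 0.10 (HCC1954 siRNA) and -0.23 (shRNA), and with shRNA those from 54 to 57 and 57 to 60 Mb were -2.22 and -2.01, over fewer genes. Taking standard errors from deposited p-values, 36 genes differed between shRNA and siRNA and 7 between SKBR3 and HCC1954 siRNA. With the same deposited entry in both comparisons these counts were 16 and 0. The segment, miRNA and same-entry alternatives were added after seeing the data. No paired analysis was possible because each group has 1 pooled value, and for the same reason no replicate could be left out. Depth, unknown here, limits what can be said of genes under 1 FPKM.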

Other observations

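Several genes near the telomere at low level in control cells were not tested by the authors, and their pooled levels differed in both directions. In SKBR3, COL9A3, a collagen chain gene, was at 1.70 FPKM in SKBR3_siAP2C and 0.347 FPKM in SKBR3_siNT, and BIRC7, an apoptosis inhibitor gene, at 1.56 and 0.427 FPKM. With shRNA COL9A3 was at 4.57 FPKM in HCC1954_shAP2C and 0.161 FPKM in HCC1954_shNT, SRMS, a tyrosine kinase gene next to PTK6, at 3.57 and 0.126 FPKM, and OPRL1, an opioid-related receptor gene, at 1.63 and 0.137 FPKM. In HCC1954_siAP2C and HCC1954_siNT, COL9A3 was at 0.113 and 0.157 FPKM, BIRC7 at 0.0554 and 0.0848 FPKM, SRMS at 0.209 and 0.328 FPKM and OPRL1 at 0.252 and 0.225 FPKM. SRMS was at 0.769 FPKM in SKBR3_siAP2C and 1.01 FPKM in SKBR3_siNT, OPRL1 at 0.0763 and 0.0632 FPKM there, and BIRC7 at 0.410 FPKM in HCC1954_shAP2C and 0.177 FPKM in HCC1954_shNT. CYP24A1, the vitamin D catabolic enzyme gene next to BCAS1, stayed at or under 3.05 FPKM in all 6 groups. The read-through symbol SLMO2-ATP5E was at 127 FPKM in HCC1954_siAP2C and 118 FPKM in HCC1954_siNT and near 0 in the other 4 groups, while PRELID3B, which shares its locus, was at 78.2 FPKM or more in all 6.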
